A study of Danio rerio with 12 samples.

Results

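The genes described here encode splicing factors and other RNA-binding proteins of zebrafish (Danio rerio). They were taken as all array probes whose RefSeq accession carries a symbol that begins with srsf, hnrnp, snrp, sf3, or rbm followed by a digit. The rule used names alone and no measured value, and it found 184 probes of 78 genes, among 43603 probes and 12858 named genes on the array. After the filter on dim probes 76 genes remained: 15 srsf, 16 hnrnp, 11 snrp, 8 sf3 and 26 rbm genes. The other two, rbm44 and rbm46, were dim on nearly every array, with 0 arrays well above background at the best probe of rbm44 and 1 at that of rbm46.

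Splicing removes introns from pre-mRNA in the spliceosome, which is built from small nuclear ribonucleoproteins (snRNPs) and many further proteins. SR proteins (srsf genes) bind exons and help the spliceosome to choose splice sites, and many hnRNP proteins (hnrnp genes) coat pre-mRNA and often counteract them. The snrp genes encode snRNP proteins, most of them Sm proteins that form a ring around the RNA of each snRNP, and the sf3 genes encode the SF3a and SF3b complexes, with which the U2 snRNP holds the branch point of the intron. Genes named rbm have in common only that their products bind RNA through a recognition motif, and their tasks range from splicing to ribosome assembly and RNA decay.

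The study exposed whole embryos of the AB wild-type strain for 3 h to 25 µM beclomethasone, a synthetic glucocorticoid that activates the glucocorticoid receptor, or to 0.1% DMSO, its solvent. There were 4 groups of 3 one-colour arrays: beclomethasone at 72 hours post fertilisation (hpf), DMSO at 72 hpf, beclomethasone at 24 hpf and DMSO at 24 hpf. Nothing in the labels says that the triplicate experiments came from separate clutches, so that the p-values measure only the spread between these samples, which may be technical. A whole embryo holds every tissue, so that fewer cells of a type and less RNA per cell cannot be told apart.

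Of 43803 spots, 31210 to 37401 were well above background on 11 arrays and 16764 on replicate 3 of DMSO at 24 hpf, whose lowest signal above background was 215 scanner units against 11.8 to 19.5 on the others. The genes of interest were mostly above that level: 68 of the 76 were well above background on all 12 arrays, as were 11426 of all 25164 genes and unnamed probes tested. A further 7, hnrnph3, rbm12ba, rbm24a, rbm39b, rbm45, rbm48 and rbm7, were not well above background on 1 of the 3 DMSO arrays of 24 hpf. The treatment labels of the arrays were checked on receptor targets. The gene hsd11b2, whose product inactivates cortisol, was higher after beclomethasone by 3.13 at 72 hpf and 3.93 at 24 hpf (log2), and fkbp5, klf9 and tsc22d3 were also called higher at both stages. The stage labels were checked likewise: all 6 photoreceptor, liver and pancreas genes measured were higher at 72 than at 24 hpf, and all 4 presomitic mesoderm genes were lower. In the log2 table that the authors deposited, beclomethasone and DMSO are exchanged relative to the arrays. Every direction below is that of the array labels.

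Levels are log2 signals of the brightest probe of a gene, minus the 75th percentile of its array. They may be compared between arrays but not between genes. A gene was called where limma's adjusted p (Benjamini-Hochberg over all 25164 genes and unnamed probes) was below 0.05, and fold changes are on the log2 scale with the standard error (SE) of the fit, from 3 arrays per group.

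Between 24 and 72 hpf nearly all of these genes fell. In DMSO embryos 63 of the 76 were lower at 72 than at 24 hpf, 7 were higher and 6 did not pass, while 36.6% of all genes and unnamed probes tested were called lower and 29.3% higher. The median log2 fold change was -0.98 over the splicing and RNA-binding genes and -0.10 over all tested, and 36 of the 63 fell by more than 1 on the log2 scale. In beclomethasone embryos 62 were lower at 72 hpf and 7 higher, against 33.7% and 33.8% of all tested, with medians of -0.93 and 0.07. The same 60 genes were lower and the same 7 higher in both treatments. The 7 include srsf7b, which was not well above background on any DMSO array of 24 hpf. It passed the filter through 72 hpf arrays alone, so that the filter favoured its call as a rise. The arrays of the stages did not overlap in 62 lower and 7 higher genes of DMSO embryos (37% and 28.4% of all tested), and in 64 and 7 of beclomethasone embryos (38.5% and 43%). Among the 11426 features above background on all 12 arrays 55% were called lower in DMSO embryos and 24.1% higher, against 61 and 5 of the 68 genes described here. The medians were -0.39 over these features and -1.02 over the 68 genes. In beclomethasone embryos these were 52.2% and 24.6%, against 60 and 5 of the 68. That comparison was added after the data had been seen. Its filter includes replicate 3 of DMSO at 24 hpf, the array with the raised floor. It therefore favours features that are high in DMSO at 24 hpf, which may raise the share called lower at 72 hpf.

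**Figure D1:**
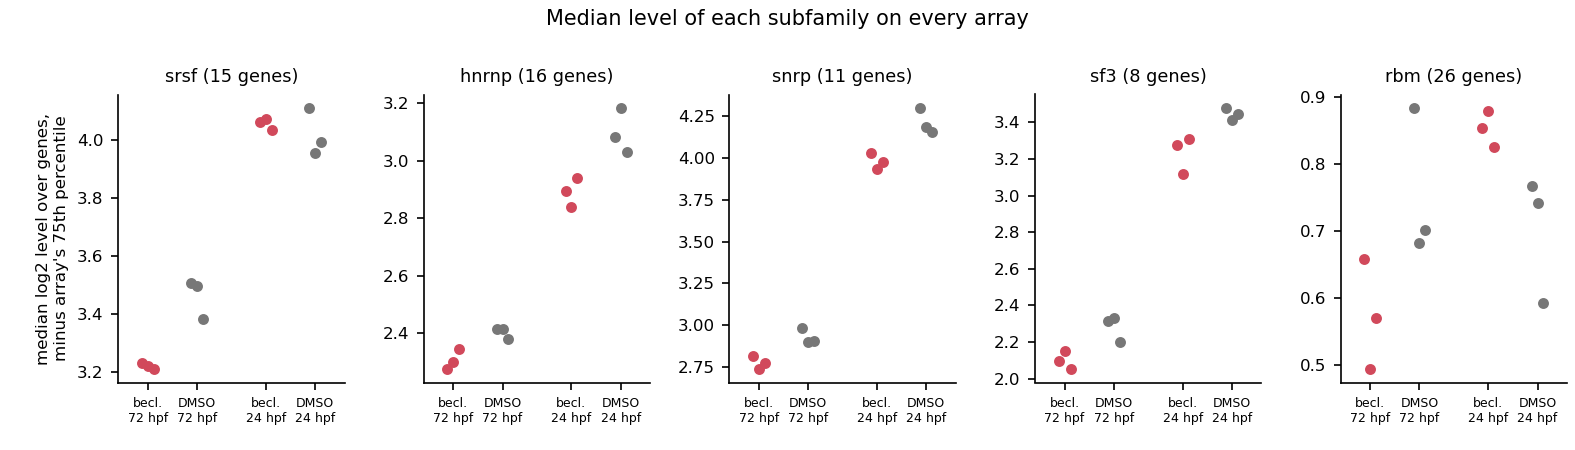
Median log2 level over the tested genes of each subfamily (minus the 75th percentile of the array) on each of the 12 arrays, red for beclomethasone and grey for DMSO. The srsf, hnrnp, snrp and sf3 medians of all 72 hpf arrays lie below those of all 24 hpf arrays, whereas the rbm medians of the stages overlap. A median of levels is not a median change: of 26 rbm genes 18 fell and 3 rose in DMSO embryos, with a median log2 fold change of -0.64.

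Every tested gene of the core snRNP and of SF3 fell between the stages. For the 11 snrp genes the log2 fold change in DMSO embryos ran from -1.65 to -0.82 with a median of -1.33. The levels of snrpf, an Sm ring gene, were 2.98, 2.90 and 2.90 in DMSO embryos of 72 hpf, against 4.53, 4.65 and 4.56 at 24 hpf (log2 fold change -1.65 ± 0.08 SE, adjusted p = 1.19e-07). Those of snrpb, another Sm ring gene, were 4.46, 4.67 and 4.56 at 72 hpf and 6.19, 6.11 and 6.11 at 24 hpf (log2 fold change -1.57 ± 0.07 SE, adjusted p = 6.6e-08). In both genes each 72 hpf array lay more than 1 log2 unit below each 24 hpf array. Levels of snrpa1, a protein of the U2 snRNP, were 1.69, 2.42 and 2.54 at 72 hpf and 3.80, 3.74 and 3.76 at 24 hpf (log2 fold change -1.55 ± 0.22 SE, adjusted p = 0.000125). Here DMSO replicate 1 of 72 hpf was the lowest by a wide margin, and the stages did not overlap. The remaining snrp genes fell by 1.47 (snrpg), 1.37 (snrpd1), 1.33 (snrpd3l), 1.22 (snrpa, the U1 snRNP protein that binds a stem-loop of U1 RNA), 1.19 (snrpc, also of the U1 snRNP), 1.16 (snrpe), 0.97 (snrpd3) and 0.82 (snrpd2).

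The 8 sf3 genes fell by a median of 1.06 in DMSO embryos. The steepest was sf3b3, a large scaffold subunit of SF3b, with levels of 1.27, 1.14 and 1.15 at 72 hpf, against 2.86, 2.74 and 2.68 at 24 hpf (log2 fold change -1.58 ± 0.08 SE, adjusted p = 9.56e-08). Levels of sf3a1, which encodes the largest SF3a subunit, were 1.50, 2.19 and 1.39 at 72 hpf and 3.17, 3.26 and 3.29 at 24 hpf (log2 fold change -1.55 ± 0.19 SE, adjusted p = 4.76e-05). Neither gene had overlapping stages. The smallest change was that of sf3b6, whose product lies at the branch point (-0.73 ± 0.07 SE, adjusted p = 1.38e-05), and sf3b4, sf3b5, sf3b2, sf3a2 and sf3a3 lay between, from -1.34 to -0.74.

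Of the 15 SR protein genes 14 fell in DMSO embryos and 1 rose. The classical SR protein gene srsf1a had the steepest fall at -1.48 ± 0.10 SE, followed by srsf10b, a family member best known as a repressor of splicing in human cells, at -1.35. Paralogues often differed in size: srsf1b fell by 0.33, srsf5a by 1.01 and srsf5b by 0.18, while srsf2a (-1.07) and srsf2b (-1.08) were nearly the same. These differences between paralogues were not tested. The one rise was that of srsf7b, with levels of -3.34, -3.71 and -3.62 at 72 hpf, against -5.90, -6.28 and -3.81 at 24 hpf. It was not well above background on any 24 hpf DMSO array, so that it had passed the filter through later arrays alone, and its rise is given only as at least 1.50-fold (adjusted p = 0.0126). Of the further srsf7b probes 1 was at 1.09 and did not pass, and 1 was lower at 72 hpf (-0.93).

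Among the 16 hnRNP genes 12 fell and 3 rose in DMSO embryos. The levels of hnrnpa1b, an A/B-type hnRNP that often blocks exon inclusion, were 5.13, 5.01 and 5.09 at 72 hpf, against 6.74, 6.64 and 6.52 at 24 hpf (log2 fold change -1.56 ± 0.08 SE, adjusted p = 1.03e-07), with well separated stages. The gene hnrnpub, a homologue of the nuclear scaffold protein HNRNPU, fell by 1.52. The rises were those of hnrnph3, hnrnph1 and hnrnpd. For hnrnph3, whose product is of the G-run binding H/F type, the levels were -2.32, -2.18 and -2.51 at 72 hpf and -3.24, -2.94 and -3.43 at 24 hpf (log2 fold change 0.87 ± 0.13 SE, adjusted p = 0.000162). The levels of hnrnph1 were 1.14, 1.20 and 0.83 at 72 hpf and 0.78, 0.68 and 0.67 at 24 hpf (log2 fold change 0.35 ± 0.10 SE, adjusted p = 0.0096). For hnrnpd, which binds AU-rich mRNA, they were 2.10, 2.30 and 2.23 at 72 hpf and 2.05, 2.004 and 2.02 at 24 hpf (log2 fold change 0.19 ± 0.07 SE, adjusted p = 0.0366). All 3 had stages that did not overlap in the measured values, by narrow gaps for hnrnph1 and hnrnpd, and hnrnph3 was dim on a DMSO array of 24 hpf. With array medians subtracted, which moved the median of all genes to -0.43, hnrnpd was at -0.14 and not called, and in beclomethasone embryos hnrnpd and hnrnph1 turned to -0.02 and -0.04.

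The rbm genes were the most mixed, with 18 falls, 3 rises and 5 that did not pass in DMSO embryos. The steepest measured fall was that of rbm12ba, which was not well above background on 1 DMSO array of 24 hpf, with levels of -3.09, -3.39 and -3.42 at 72 hpf, against -1.07, -1.34 and -1.74 at 24 hpf (log2 fold change -1.91 ± 0.18 SE, adjusted p = 7.92e-06). Those of rbm12 were -3.20, -2.98 and -2.75 at 72 hpf and -1.57, -1.73 and -0.98 at 24 hpf (log2 fold change -1.55 ± 0.23 SE, adjusted p = 2e-04). Genes whose human products work in the nucleolus fell as well, rbm34 by 1.23, rbm19 by 0.90 and rbm28 by 0.64, as did rbm8a (-0.97), a core protein of the exon junction complex that marks spliced mRNA. The rbm4 genes rbm4.1, rbm4.2 and rbm4.3, which encode regulators of alternative exons, fell by 0.97, 1.22 and 1.24.

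The largest rbm rise was that of rbm47, a gene known from mammals as a partner of the APOBEC1 mRNA editing enzyme. Its levels were 1.55, 1.73 and 1.81 at 72 hpf, against 0.56, 0.47 and 0.38 at 24 hpf (log2 fold change 1.23 ± 0.09 SE, adjusted p = 8.71e-07) and every 72 hpf array lay far above every 24 hpf array. For rbm38, which binds AU-rich mRNA, the levels were 1.79, 1.77 and 1.68 at 72 hpf and 1.28, 1.24 and 1.21 at 24 hpf (log2 fold change 0.51 ± 0.06 SE, adjusted p = 2.49e-05). Levels of rbm41, whose human product binds RNA of the minor spliceosome, were 1.40, 1.14 and 1.30 at 72 hpf and 0.97, 0.76 and 0.64 at 24 hpf (log2 fold change 0.49 ± 0.11 SE, adjusted p = 0.00273). In rbm48, another gene of the minor spliceosome in mammals, the stages overlapped (0.20 ± 0.13 SE, adjusted p = 0.196). Slides and stages are largely confounded in the design, with slide 1 holding 24 hpf and slide 3 holding 72 hpf arrays alone. With slide as a block 58 genes were lower and 4 higher in DMSO embryos, against 26.5% and 18.4% of all tested.

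**Figure D2:**
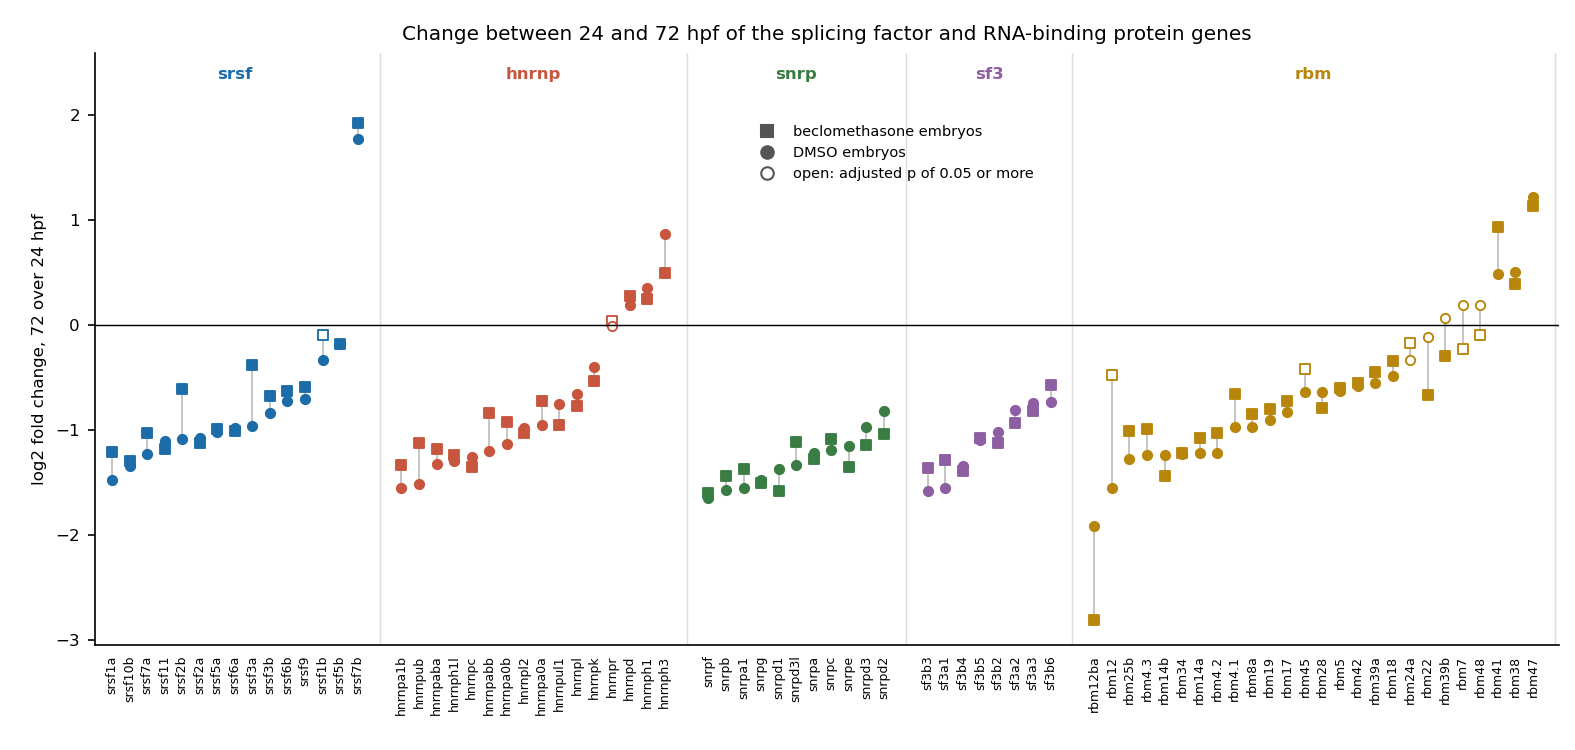
Log2 fold change of 72 over 24 hpf (vertical axis) for each of the 76 tested genes, grouped by subfamily and ordered by the DMSO value. Squares are beclomethasone and circles DMSO embryos, filled where the adjusted p is below 0.05, and all 11 snrp and 8 sf3 genes lie below 0.

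Other genes of the splicing machinery, taken from lists outside the rule, mostly fell as well in DMSO embryos. Of all tested 36.6% were called lower and 29.3% higher, and 55% and 24.1% of features above background on all 12 arrays, a filter limited as said above. Of 40 other snRNP proteins 38 fell, among them snrnp200 (-1.49, adjusted p = 1.63e-07), the helicase that unwinds the U4/U6 pair, and u2af2a (-1.44, adjusted p = 5.53e-06), which recognises the polypyrimidine tract. Of 27 factors of the Prp19 complex and the catalytic steps 23 fell, with aqr (-1.63, adjusted p = 6e-08), an RNA helicase, at the low end. Of 15 snRNP assembly genes 14 fell, led by prmt5 (-1.56, adjusted p = 2.39e-07), the enzyme that methylates Sm proteins. Of 21 genes of the exon junction complex and mRNA export 18 fell and 2 rose, and upf3a (1.72, adjusted p = 7.04e-05) was the largest rise. The 53 other splicing regulators were more mixed, with 35 falls and 13 rises. Their largest changes were rises of khdrbs2 (2.88, adjusted p = 1.01e-05), pcbp3 (2.24, adjusted p = 0.000145) and rbfox1 (2.09, adjusted p = 8.12e-09), the last a neuronal and muscle splicing regulator. Of 5 SR protein kinase genes 3 fell, srpk1b (-1.79, adjusted p = 1.6e-07) the most.

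Markers of proliferating cells moved the same way. The summed level of 9 dividing-cell genes was 6.02 to 6.11 (log2) on DMSO arrays of 72 hpf and 8.12 to 8.16 at 24 hpf, and all 9 fell. The 6 neural progenitor genes, which also all fell, summed to 3.94 to 4.06 at 72 hpf and 6.55 to 6.65 at 24 hpf. Among 5 neuronal genes 4 rose and 1 fell, with sums of 5.17 to 5.18 at 72 hpf and 3.89 to 3.95 at 24 hpf, and 5 skeletal muscle genes summed to 9.57 to 9.62 at 72 hpf and 9.28 to 9.37 at 24 hpf. Their part in the fall of the splicing genes was not tested.

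Beclomethasone lowered the level of many of these genes by a small amount at 24 hpf. Of the 76 genes 27 were lower than in DMSO embryos and 5 were higher, while 10.1% of all genes and unnamed probes tested were called lower and 9.05% higher. Among features above background on all 12 arrays these shares were 17.1% and 10.4%, against 26 and 2 of the 68 genes described here. As said above, that filter favours features that are high in DMSO at 24 hpf, which may raise the share called lower. The median log2 fold change was -0.19 over the 76 genes and -0.12 over all tested, and 60 of 76 were below 0. With quantile normalization the medians were -0.17 and 0.00, and with array medians subtracted they were -0.26 and -0.19. In 47 genes every beclomethasone array lay below every DMSO array, which holds for 22.6% of all tested, and in 9 it lay above, against 16.1%.

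By subfamily, 9 of 16 hnrnp, 9 of 26 rbm, 5 of 15 srsf, 2 of 11 snrp and 2 of 8 sf3 genes were lower at 24 hpf. The 5 higher ones were hnrnph3 and 4 rbm genes. The largest fall was that of rbm12, with levels of -2.52, -2.77 and -2.44 in beclomethasone embryos, against -1.57, -1.73 and -0.98 in DMSO embryos (log2 fold change -1.15 ± 0.23 SE, adjusted p = 0.00927). Its groups did not overlap, and DMSO replicate 3, the array with the raised floor, was the highest. Without that array the fold change was -0.93 (adjusted p = 0.0121). For rbm12ba the levels were -1.997, -2.15 and -1.84 in beclomethasone and -1.07, -1.34 and -1.74 in DMSO embryos (log2 fold change -0.61 ± 0.18 SE, adjusted p = 0.0428), and only a narrow gap separated the groups.

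The arrays of the rbm4 genes were closer together. The levels of rbm4.1 were 2.77, 2.75 and 2.96 in beclomethasone embryos, against 3.57, 3.41 and 3.31 in DMSO embryos (log2 fold change -0.60 ± 0.09 SE, adjusted p = 0.00227). Those of rbm4.2 were 2.76, 2.67 and 2.82 in beclomethasone and 3.34, 3.29 and 3.13 in DMSO embryos (log2 fold change -0.50 ± 0.07 SE, adjusted p = 0.00223), and rbm4.3 fell by 0.37. The brightest probes of all 3 paralogues thus moved the same way by 0.37 to 0.60. The second rbm4.1 probe was at 0.14 and was not called. Of the rbm4.2 probes 4 of 5 were called lower, and of the rbm4.3 probes 2 of 4. The highest of these probes were at 0.21 for rbm4.2 and 0.02 for rbm4.3. The nuclear scaffold gene hnrnpub had 5.14, 5.19 and 5.35 in beclomethasone and 5.92, 5.81 and 5.70 in DMSO embryos (log2 fold change -0.58 ± 0.10 SE, adjusted p = 0.00398). Levels of hnrnpa1b were 6.11, 6.09 and 6.24 in beclomethasone and 6.74, 6.64 and 6.52 in DMSO embryos (log2 fold change -0.49 ± 0.08 SE, adjusted p = 0.00361). In both hnRNP genes the highest beclomethasone array stayed below the lowest DMSO array, and the other A/B-type genes fell less: hnrnpabb by 0.39, hnrnpaba by 0.37, hnrnpa0a by 0.36 and hnrnpa0b by 0.34. The remaining falls in this subfamily were those of hnrnph1l, hnrnpc, which binds uridine tracts, and hnrnpr, from -0.36 to -0.31.

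Among SR proteins srsf2b, a homologue of the nuclear speckle protein SC35, changed the most at the brightest probe. Its levels there were 3.59, 3.40 and 3.43 in beclomethasone embryos, against 4.003, 3.96 and 3.98 in DMSO embryos (log2 fold change -0.51 ± 0.11 SE, adjusted p = 0.0115), and the DMSO arrays were nearly equal. The other srsf2b probe was at -0.10 and was not called. The falls of srsf1a, srsf10b, srsf3b and srsf7a were between -0.39 and -0.28. Of the core snRNP genes snrpd3l had 3.58, 3.35 and 3.52 in beclomethasone and 4.003, 3.82 and 3.81 in DMSO embryos (log2 fold change -0.39 ± 0.08 SE, adjusted p = 0.0113), and snrpc fell by 0.32. In SF3, sf3b3 fell by 0.39 and sf3b6 by 0.26. The rest of the falls, rbm25b, rbm18, rbm8a and rbm38, were between -0.31 and -0.22.

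The largest measured rise of the 5 was that of rbm48. Each of rbm48, hnrnph3 and rbm7 was not well above background on 1 DMSO array, so that these rises rest in part on a dim value. The rbm48 levels were -1.25, -1.20 and -1.22 in beclomethasone embryos, against -2.12, -1.89 and -1.99 in DMSO embryos (log2 fold change 0.77 ± 0.13 SE, adjusted p = 0.00373), or 1.71-fold. For hnrnph3 they were -2.51, -2.52 and -2.64 in beclomethasone and -3.24, -2.94 and -3.43 in DMSO embryos (log2 fold change 0.65 ± 0.13 SE, adjusted p = 0.00812). In both genes the measured values of the groups did not overlap, but with the dim DMSO value the width of the gap is uncertain. The second probe of hnrnph3 was at 0.31, was not called, and had overlapping groups. The levels of rbm22, whose human product sits in the active centre of the spliceosome, were 0.92, 1.09 and 0.90 in beclomethasone and 0.33, 0.72 and 0.54 in DMSO embryos (log2 fold change 0.44 ± 0.12 SE, adjusted p = 0.0325). Those of rbm7, a subunit of a complex that hands nuclear RNA to the exosome in human cells, were -2.75, -2.56 and -2.53 in beclomethasone and -3.06, -2.84 and -3.22 in DMSO embryos (log2 fold change 0.43 ± 0.11 SE, adjusted p = 0.0244). The levels of rbm47 were 0.79, 0.71 and 0.75 in beclomethasone and 0.56, 0.47 and 0.38 in DMSO embryos (log2 fold change 0.28 ± 0.09 SE, adjusted p = 0.0484). In the last 3 genes the groups did not overlap, but the nearest arrays lay close together.

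Slide and treatment overlap at 24 hpf, since 2 of the 3 beclomethasone arrays lay on slide 2 and all 3 DMSO arrays on slide 1. With a slide term in the fit 2 genes stayed lower, hnrnpub (-0.67, adjusted p = 0.0474) and rbm4.1 (-0.66, adjusted p = 0.045), and 0 higher (limma, with 26 lower and 3 higher at an unadjusted p under 0.05). Of all tested 1.21% were then lower and 2.33% higher. Slide 1 alone holds both treatments of 24 hpf, so the slide fit sets 1 beclomethasone array against 3 DMSO arrays. Its estimates are the differences within slide 1, which are no separate check. Their median was -0.18 over the 76 genes and -0.14 over all tested. The count of lower genes was 16, 12 and 17 without beclomethasone replicate 1, beclomethasone replicate 2 and DMSO replicate 1. Of all tested 5.82%, 3.79% and 6.48% were then lower. That of higher genes was 3 without beclomethasone replicate 1, against 6.01% of all tested. It was 2 without beclomethasone replicate 2, beclomethasone replicate 3 or DMSO replicate 1, against 4.95%, 7.19% and 6.99% of all tested. With the 24 hpf arrays alone in the fit 4 were lower and 1 higher, against 2.02% and 3.19% of all tested.

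Fewer genes passed the test for beclomethasone at 72 hpf. Of the 76 genes 10 were lower and 3 higher than in DMSO embryos, while 5.44% of all tested were called lower and 4.8% higher, and 9.57% and 6% of those above background on all 12 arrays, against 9 and 2 of 68. The median log2 fold change was -0.12 over the 76 genes and 0.00 over all tested, and 63 of 76 were below 0. The groups did not overlap in 35 genes with beclomethasone lower and 5 with it higher, against 18.5% and 16.8% of all tested. The same-numbered arrays of the treatments deviated together at this stage. A replicate block was fitted over all 12 arrays with the same shifts at both stages, and a pairing at 72 hpf alone was not fitted. With the replicate number as a block 5 genes were lower (rbm12ba, rbm38, snrpe, rbm14b and, not called without the block, rbm34) and 2 were higher (srsf3a and rbm48), against 4.09% and 4.02% of all tested.

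The largest rise was that of srsf3a, a gene of the smallest SR protein in mammals. Its levels were 0.85, 0.93 and 0.90 in beclomethasone embryos, against 0.10, 0.18 and -0.02 in DMSO embryos (log2 fold change 0.80 ± 0.09 SE, adjusted p = 0.000391), or 1.75-fold. The groups lay far apart, and with the replicate block the adjusted p was 0.00951. Within slide 3, which holds 3 beclomethasone arrays and DMSO replicate 3, the difference was 0.91, and with slide as a block the adjusted p was 0.012. Its paralogue srsf3b was at -0.15 ± 0.07 SE and did not pass (adjusted p = 0.26). The levels of rbm48 were -1.37, -1.17 and -1.40 in beclomethasone embryos, against -1.93, -1.51 and -1.97 in DMSO embryos (log2 fold change 0.49 ± 0.13 SE, adjusted p = 0.0374), with DMSO replicate 2 close to the beclomethasone arrays. Those of rbm39a, whose human counterpart is a splicing factor related to U2AF, were 3.05, 3.03 and 3.02 in beclomethasone and 2.79, 2.82 and 2.81 in DMSO embryos (log2 fold change 0.23 ± 0.05 SE, adjusted p = 0.0272). This difference was small, the arrays within a group were nearly equal, and the call was lost with the replicate block (adjusted p = 0.0687).

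The largest fall at 72 hpf was also in an rbm gene. Levels of rbm12ba were -4.56, -4.93 and -4.93 in beclomethasone embryos, against -3.09, -3.39 and -3.42 in DMSO embryos (log2 fold change -1.51 ± 0.18 SE, adjusted p = 0.000655), which is 0.351 of the DMSO level. A second, dimmer probe of rbm12ba gave -1.16 at 72 hpf and -0.60 at 24 hpf, the latter with a dim value on DMSO replicate 3. With slide as a block the fall was -1.39 (adjusted p = 0.0501), just short of the threshold. By contrast rbm12 was at -0.08 ± 0.23 SE (adjusted p = 0.94), with -3.37, -2.69 and -3.10 in beclomethasone and -3.20, -2.98 and -2.75 in DMSO embryos.

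The other falls were between -0.41 and -0.24. The levels of hnrnpc were 1.04, 0.99 and 1.08 in beclomethasone embryos, against 1.44, 1.48 and 1.41 in DMSO embryos (log2 fold change -0.41 ± 0.08 SE, adjusted p = 0.0079). Those of rbm38 were 1.46, 1.38 and 1.40 in beclomethasone and 1.79, 1.77 and 1.68 in DMSO embryos (log2 fold change -0.33 ± 0.06 SE, adjusted p = 0.00485). In both genes the spread within a group was well below the difference. Among Sm ring genes snrpe had 3.58, 3.50 and 3.42 in beclomethasone and 3.92, 3.85 and 3.70 in DMSO embryos (log2 fold change -0.32 ± 0.07 SE, adjusted p = 0.022). For snrpd1 the levels were 3.74, 3.60 and 3.59 in beclomethasone and 4.04, 3.92 and 3.84 in DMSO embryos (log2 fold change -0.29 ± 0.07 SE, adjusted p = 0.0319), and snrpd3 fell by 0.24. At the brightest probe none of these 3 Sm genes was called at 24 hpf, where they were at -0.13, -0.07 and -0.07. Of the 3 snrpd1 probes, however, 1 was called lower at 24 hpf, where the lowest was at -0.22, and all 3 at 72 hpf. The levels of rbm4.2 were 1.68, 1.76 and 1.73 in beclomethasone and 2.05, 1.98 and 2.07 in DMSO embryos (log2 fold change -0.31 ± 0.07 SE, adjusted p = 0.0249). Those of hnrnph1l were 3.42, 3.34 and 3.46 in beclomethasone and 3.75, 3.69 and 3.68 in DMSO embryos (log2 fold change -0.30 ± 0.06 SE, adjusted p = 0.0116). For rbm14b, a homologue of a nuclear coactivator found in paraspeckles, they were 0.88, 0.82 and 0.87 in beclomethasone and 1.24, 1.12 and 1.11 in DMSO embryos (log2 fold change -0.30 ± 0.06 SE, adjusted p = 0.0112). The last fall was that of srsf10b (-0.28). With the replicate block hnrnpc, rbm4.2, hnrnph1l, snrpd1, snrpd3 and srsf10b were no longer called (adjusted p between 0.0508 and 0.103). No sf3 gene was called at 72 hpf (0 of 8 by limma, 1 at an unadjusted p under 0.05).

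With slide as a block srsf3a alone was called at 72 hpf, with 0 genes lower (limma, 13 lower and 4 higher at an unadjusted p under 0.05). Of all tested 1.07% were then lower and 1.87% higher. Slide 3 alone holds both treatments of 72 hpf, so the slide fit sets 3 beclomethasone arrays against 1 DMSO array. Its estimates are the differences within slide 3, which are no separate check. Their median was -0.13 over the 76 genes and -0.03 over all tested. The count of lower genes was 3, 5 and 5 without beclomethasone replicate 2, beclomethasone replicate 3 and DMSO replicate 1. Of all tested 2.79%, 3.06% and 3.26% were then lower. That of higher genes was 1 without any one of the beclomethasone arrays or without DMSO replicate 1 or 3. Of all tested 3.18% to 4.84% were higher in these fits.

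**Figure D3:**
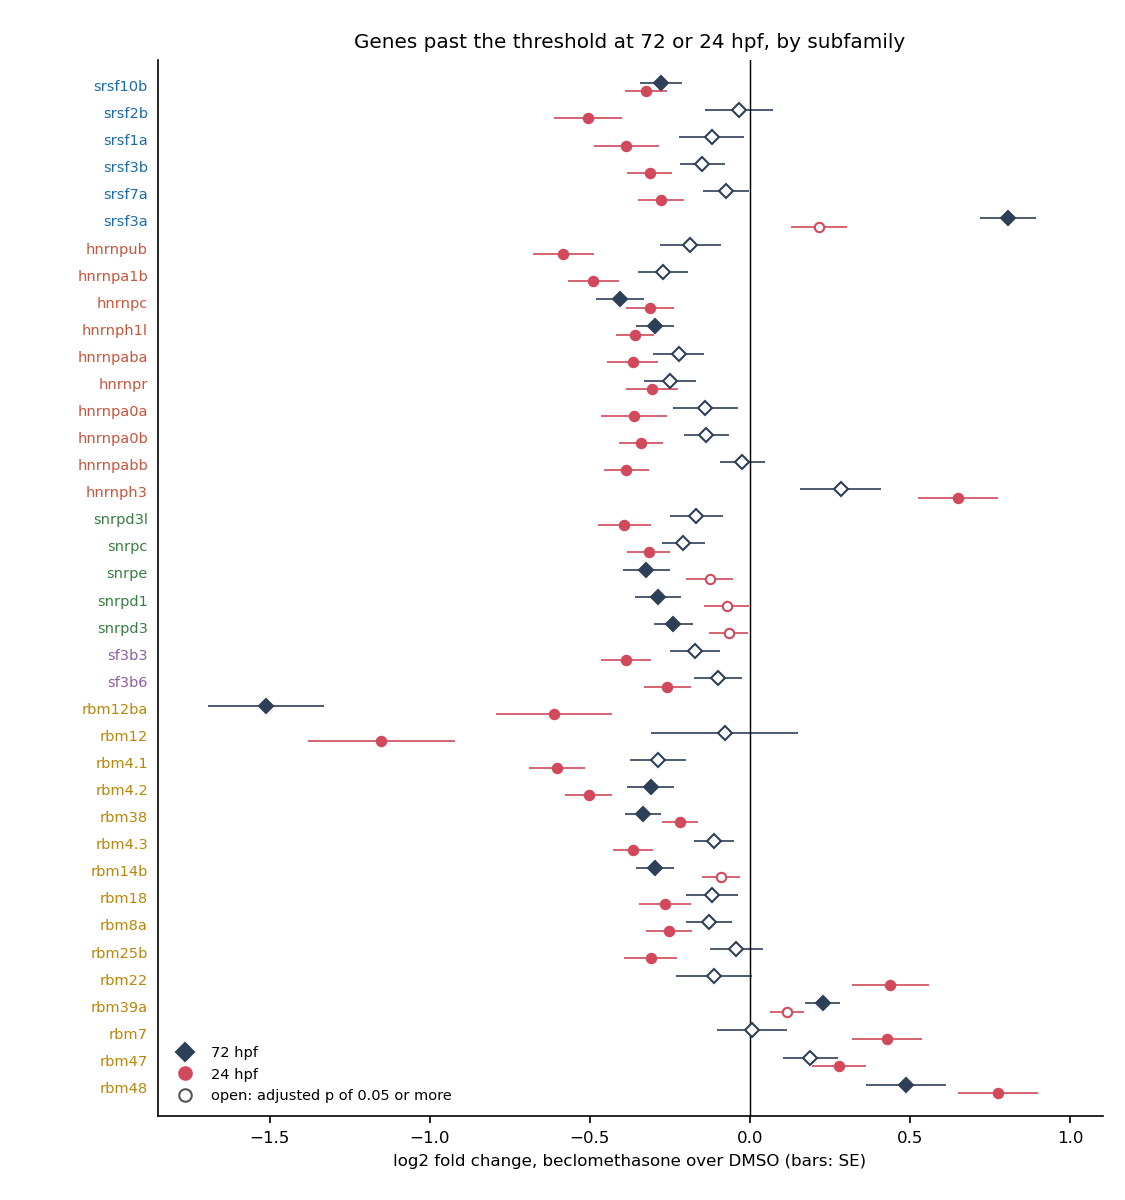
Log2 fold change of beclomethasone over DMSO (horizontal axis, bars are SE, 3 arrays per group) for the genes called at either stage, diamonds for 72 hpf and circles for 24 hpf, filled where called. The largest values are the rise of srsf3a at 72 hpf and the falls of rbm12ba at 72 hpf and rbm12 at 24 hpf.

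After beclomethasone 6 genes were called lower at both stages: hnrnpc, hnrnph1l, rbm12ba, rbm38, rbm4.2 and srsf10b. The level of 1 gene, rbm48, was called higher at both. With slide as a block none of them was called at either stage. With the replicate block hnrnpc, hnrnph1l, rbm4.2 and srsf10b were not called at 72 hpf. At 24 hpf the other probe of rbm38 was called higher (0.41) and that of hnrnpc was at 0.27. Of the 4 hnrnph1l probes 2 were called lower at each stage, and the highest at 24 hpf was at 0.06. Both tested probes of rbm12ba and of srsf10b were called lower at both stages. The second rbm12ba probe was at -3.71 on DMSO replicate 3 of 24 hpf, against -4.40 and -4.17 on the other DMSO arrays. A probe of rbm44, dim on every array, was also at -3.71 on replicate 3. The agreement of the rbm12ba probes at 24 hpf thus rests in part on a dim value. A further 21 were called lower and 4 higher at 24 hpf alone, and 4 lower and 2 higher at 72 hpf alone, which by itself does not show that the effects differ. The difference of the effects (72 minus 24 hpf) was therefore tested. It was called for 1 gene, srsf3a, whose effect was 0.80 at 72 hpf and 0.22 at 24 hpf (difference 0.59 ± 0.12 SE, adjusted p = 0.0256). At 24 hpf its levels were 1.24, 1.19 and 1.37 in beclomethasone embryos, against 0.91, 1.19 and 1.06 in DMSO embryos. In the fit with the replicate block the adjusted p of the difference was 0.0719. No gene was called in the other direction (0 by limma, 5 at an unadjusted p under 0.05), and 2.56% and 3.74% of all tested had a positive and a negative difference. Among features above background on all 12 arrays these were 3.89% and 5.15%, against 1 and 0 of the 68 genes.

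The other differences did not pass, and the largest of each sign are given here. They were positive for rbm12 (1.07 ± 0.33 SE, adjusted p = 0.0815), srsf2b (0.47, adjusted p = 0.0938) and rbm41 (0.44, adjusted p = 0.116). Below these, hnrnpub was at 0.40 (adjusted p = 0.11) and hnrnpabb at 0.36 (adjusted p = 0.0648). Differences were negative for rbm12ba (-0.90 ± 0.26 SE, adjusted p = 0.0687), rbm22 (-0.55, adjusted p = 0.0842), rbm7 (-0.42, adjusted p = 0.13) and hnrnph3 (-0.37, adjusted p = 0.235). The other probe of srsf2b gave a difference of 0.03. At 72 hpf the brightest probe of srsf2b had 2.84, 2.79 and 2.95 in beclomethasone and 2.94, 2.66 and 3.09 in DMSO embryos. There rbm22 had 0.18, 0.36 and 0.37 in beclomethasone and 0.28, 0.39 and 0.58 in DMSO embryos, and its groups overlapped, unlike at 24 hpf. For rbm7 the levels at 72 hpf were -2.83, -2.94 and -2.75 in beclomethasone and -2.94, -2.76 and -2.84 in DMSO embryos. For hnrnph3 they were -2.04, -2.01 and -2.11 in beclomethasone and -2.32, -2.18 and -2.51 in DMSO embryos, with no overlap and a log2 fold change of 0.28 that did not pass (adjusted p = 0.228). For rbm41 they were 1.46, 1.45 and 1.44 in beclomethasone and 1.40, 1.14 and 1.30 in DMSO embryos at 72 hpf, and at 24 hpf 0.37, 0.50 and 0.67 in beclomethasone and 0.97, 0.76 and 0.64 in DMSO embryos.

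**Figure D4:**
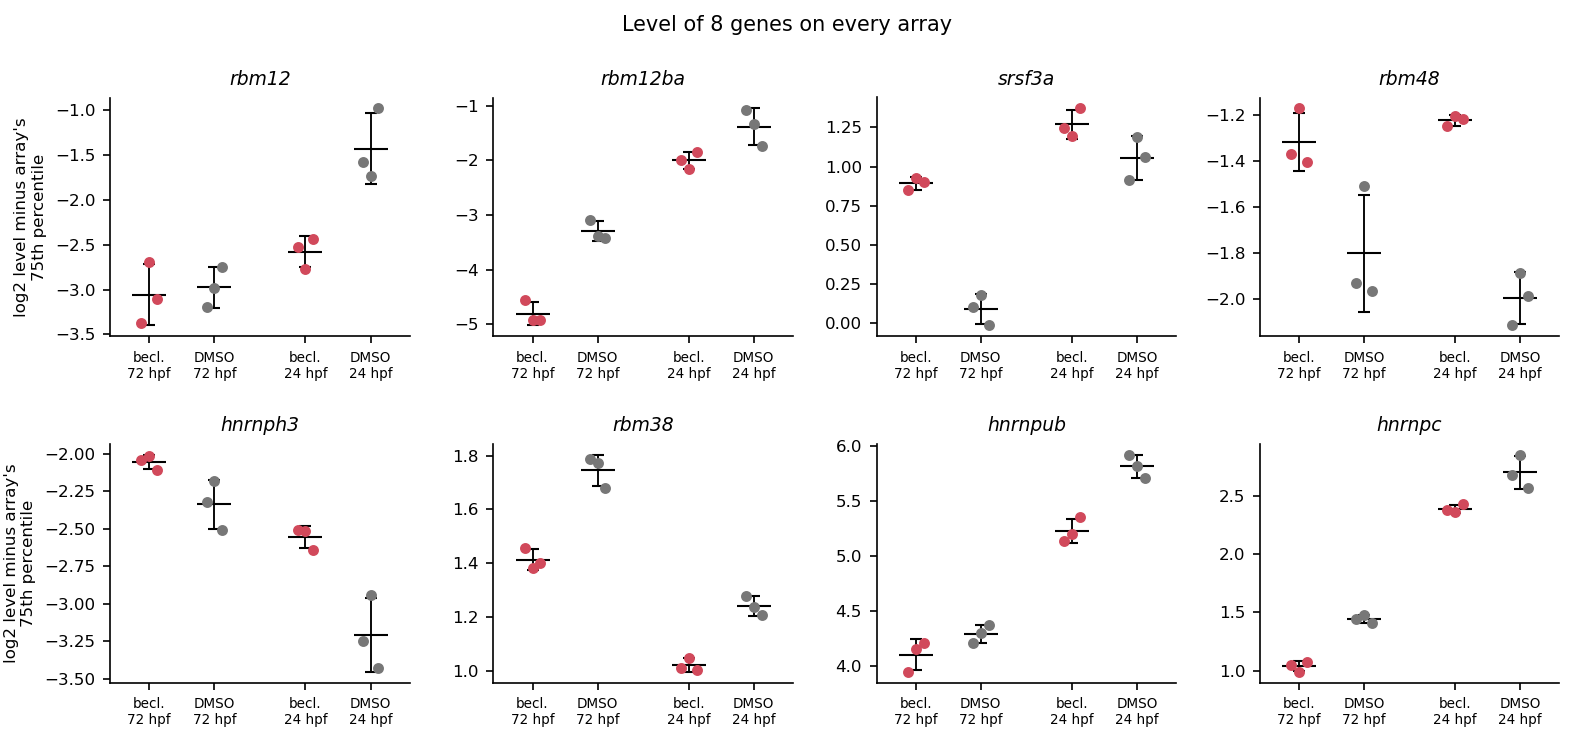
Log2 level (minus the 75th percentile of the array) of 8 genes on each array, with the mean and SD of each group of 3 in black, beclomethasone in red and DMSO in grey. The groups of rbm12 are apart at 24 hpf and overlap at 72 hpf, and those of srsf3a are far apart at 72 hpf.

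Several genes gave different answers at different probes. Of the 76 genes 54 had more than 1 tested probe. For beclomethasone at 24 hpf 5 of these 54 genes had all their probes called in the same direction, and at 72 hpf 3 did. When every probe was tested by itself, 23 of 175 were higher and 46 lower in beclomethasone at 24 hpf, against 12.2% and 9.81% of all 36056 probes. At 72 hpf 3 were higher and 17 lower, against 4.53% and 4.72%. The difference of the effects was positive for 2 probes and negative for 5, against 2.55% and 5.21%. Between the stages 131 fell and 14 rose in DMSO embryos, against 36.1% and 30.3%, and 137 and 13 in beclomethasone embryos, against 34.7% and 33%. With beclomethasone at 24 hpf the 99 dimmer probes of the 54 genes lay a median of 0.14 above the brightest probe of their gene, and 67.7% of them lay above it. Over all 6927 named genes with several tested probes the median was 0.07 and the share 59%. Of the 99 dimmer probes 18 were called higher and 18 lower, against 2053 and 859 of 10892 dimmer probes over all named genes, so that the share called higher was near that of named genes in general. At 72 hpf the medians were 0.03 for both. Setting brightest against dimmer probes was chosen after the data had been seen.

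Several of these probes belong to SR protein genes. The brightest probe of srsf6a had 4.71, 4.64 and 4.68 in beclomethasone embryos of 24 hpf, against 4.86, 4.77 and 4.78 in DMSO embryos, and was not called (-0.13). Its other probe had 1.44, 1.41 and 1.24 in beclomethasone and 0.04, 0.75 and 0.62 in DMSO embryos, a rise of 0.89 (adjusted p = 0.00495 over all probes). In the same way 3 of the 5 probes of srsf5a rose by 0.40, 0.44 and 0.55 while its brightest probe was at -0.03, and the dimmer probe of srsf9 rose by 0.48 beside -0.17 at the brightest. For srsf7a the probes were called in opposite directions, -0.28 at the brightest and 0.58 at another, and likewise for rbm38, at -0.22 and 0.41. Dimmer probes also rose for hnrnpl2 (0.39 and 0.53), sf3b4 (0.58), sf3a2 (0.52), snrpa (0.43), srsf2a (0.42), srsf5b (0.29), rbm39a (0.39 and 0.74), rbm22 (0.61) and rbm47 (0.70). At 72 hpf these 18 probes were between -0.19 and 0.35 and did not pass.

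**Figure D5:**
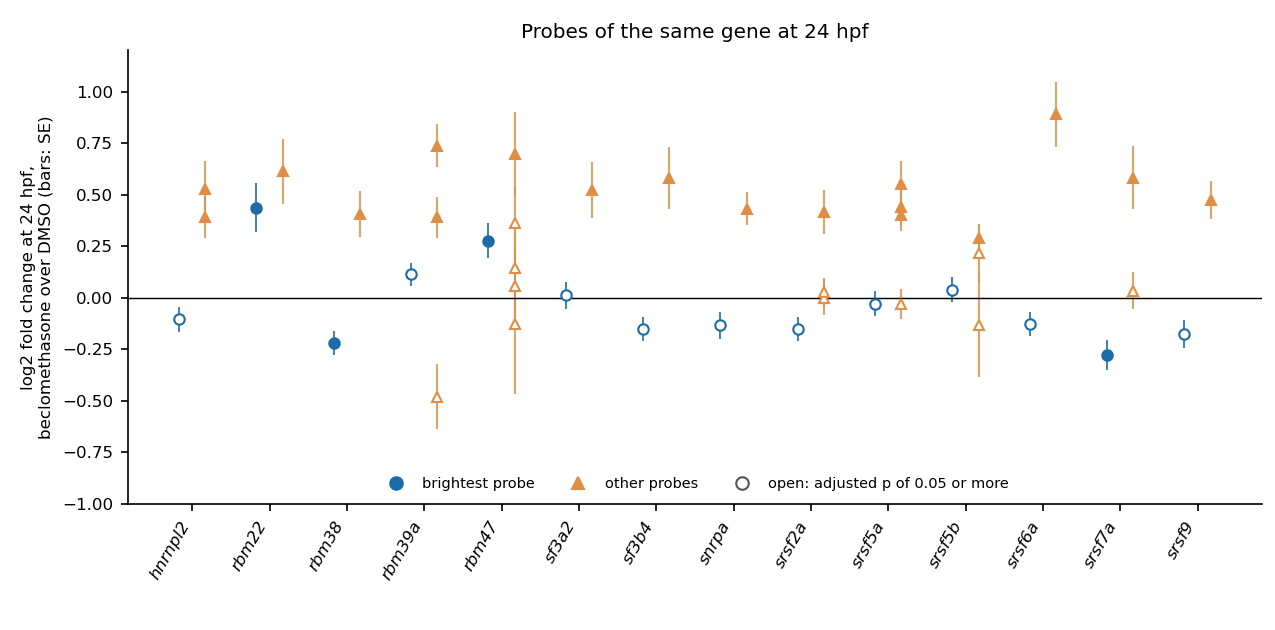
Log2 fold change of beclomethasone over DMSO at 24 hpf (bars are SE, 3 arrays per group) for each tested probe of the 14 genes with a dimmer probe called higher, filled where called. The brightest probes of all but rbm22 and rbm47 lie between -0.28 and 0.11, and at least 1 dimmer probe of each gene lies above 0.

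For the change with stage in DMSO embryos 30 of the 54 genes had all their probes called in the same direction, and 4 had probes called in opposite directions: hnrnph1, rbm39a, rbm41 and srsf7b. The brightest hnrnph1 probe was at 0.35 and the other at -0.66. The rbm41 probes were at 0.49 and -0.64, the rbm39a probes between -1.54 and 0.38, and the srsf7b probes between -0.93 and 1.77. In beclomethasone embryos 40 genes agreed at all probes and 1, hnrnph1, had opposite calls. In DMSO embryos the rises of hnrnph1, rbm41 and srsf7b with age were therefore called at their brightest probe alone, whereas both probes of rbm38 rose and 5 of the 6 probes of rbm47. The rise of hnrnph3 was also called at its brightest probe alone, with the other at 0.46.

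Among other splicing genes beclomethasone at 24 hpf lowered 15 of 40 snRNP proteins and raised 1, usp39 (0.79, adjusted p = 0.0111), a protein of the tri-snRNP. The largest falls there were sart3 (-0.53, adjusted p = 0.0109), a recycling factor of the U6 snRNP, and luc7l3 (-0.48, adjusted p = 0.0101). It lowered 14 of 53 other regulators and raised 2, qkia (0.86, adjusted p = 0.00303), a homologue of the quaking splicing regulator, and raly (0.79, adjusted p = 8.99e-05), a relative of hnrnpc. Among the regulators called lower the largest fall was that of syncripl (-0.64, adjusted p = 0.00281). Of 15 snRNP assembly genes 6 fell and 1 rose, with coil (-0.36, adjusted p = 0.0155), the marker of Cajal bodies, and clns1a (-0.36, adjusted p = 0.0276) among the falls. Of 27 catalytic step factors 4 fell, isy1 (-0.49, adjusted p = 0.0103) the most, and 1 rose, cwc25 (0.37, adjusted p = 0.0433). Of 21 export and exon junction genes 2 rose, thoc5 (0.73, adjusted p = 0.00507) and thoc3 (0.58, adjusted p = 0.0201), both of the THO complex, and 1 fell. The median fold changes of these 5 lists ran from -0.21 to -0.11, beside -0.12 over all tested. Of all tested 10.1% were called lower and 9.05% higher at this stage. Among features above background on all 12 arrays, a filter limited as said above, these shares were 17.1% and 10.4%.

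At 72 hpf fewer of them changed. Beclomethasone lowered 4 of 40 snRNP proteins, 3 of 27 catalytic step factors, 2 of 53 regulators, 4 of 15 assembly genes and 2 of 21 export genes. Over all tested 5.44% were called lower and 4.8% higher. Among features above background on all 12 arrays these shares were 9.57% and 6%. Examples were phax (-0.43, adjusted p = 0.00179), the export adaptor of snRNAs, gemin4 (-0.41, adjusted p = 0.00879), a subunit of the SMN complex, and prmt7 (-0.45, adjusted p = 0.0124). The largest change was a rise of clk4b (0.76, adjusted p = 0.00104), a kinase that phosphorylates SR proteins and 1 of 5 kinase genes tested. Its rise at 72 hpf was similar in size to that of srsf3a (0.80).

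Markers of dividing cells also fell after beclomethasone, 8 of 9 at 72 hpf and 5 of 9 at 24 hpf. Their summed level was 5.16 to 5.31 (log2) in beclomethasone and 6.02 to 6.11 in DMSO embryos at 72 hpf, and at 24 hpf 7.82 to 7.88 in beclomethasone and 8.12 to 8.16 in DMSO embryos. The neural progenitor sums overlapped at 72 hpf, at 3.98 to 4.06 in beclomethasone and 3.94 to 4.06 in DMSO embryos, and at 24 hpf, at 6.41 to 6.59 in beclomethasone and 6.55 to 6.65 in DMSO embryos. The part of dividing cells in the falls of splicing genes was not tested.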

How the data were processed

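Whole-embryo RNA was hybridised to 12 one-colour Agilent arrays, 1 per sample. The authors deposited the intensity of each spot as background-subtracted and detrended by Agilent Feature Extraction 10.7.1.1, per the file headers, with no scaling between arrays. The deposited log2 table was made with Feature Extraction and limma, per the submitters' processing notes, and its steps are not given in the sources used here. Each of its columns correlated best (r 0.988 to 0.997 over 13879 probes) with an array of the same stage and replicate but the other treatment, so it served as an alternative only.

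Here log2 processed signals were centred on the 75th percentile of each array, outlier and control spots were left out, and a probe was kept if well above background on all 3 arrays of a group. Of 184 probes of the rule 176 passed, and 1 of these lacked a value. A gene took its brightest probe. RefSeq accessions gave symbols for 25069 of 26981 probes that carry one. Group means of all 12 arrays were fitted with limma 3.58.1 in R 4.3.3 (8 residual degrees of freedom), and the code was tested on simulated data. Alternatives were other scalings, normexp (offset 50, on median signals, since the files hold no mean signal), filters, probe rules, slide or replicate blocks, left-out arrays and the deposited table. Within-slide differences, features above background on all arrays and dimmer probes were added after seeing the data. Same-numbered 72 hpf arrays correlated in their deviations from the group means (r 0.498 to 0.533). The replicate block was fitted over all 12 arrays with the same shifts at both stages. A pairing at 72 hpf alone was not fitted.

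The genes and lists were chosen with earlier results of these data known. Named genes were those with the largest changes among called genes whose groups did not overlap, up to 8 a direction, plus up to 3 per further list. The number of arrays limits the precision. No sequences were used.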

Additional observations from a re-analysis of the deposited data

Results flagged for a closer look

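The beclomethasone effect on srsf3a differed between the stages, by 0.59 ± 0.12 SE on the log2 scale (72 minus 24 hpf, adjusted p = 0.0256, limma), and this test of the difference is what drew attention to it. All 3 beclomethasone arrays lay above all 3 DMSO arrays at both stages, by a wide margin at 72 hpf and by almost nothing at 24 hpf. The difference was no longer called with slide as a block (0.72, adjusted p = 0.161), with the replicate block (adjusted p = 0.0719), or without beclomethasone replicate 1 or 2 of 24 hpf, any beclomethasone array of 72 hpf or DMSO replicate 1 of 72 hpf (adjusted p between 0.0508 and 0.0759). The gene has 1 tested probe, so that no second probe bears on it. Dixon's test for single arrays was not applied, since every group holds 3 arrays.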

How the results depend on the processing

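Counts moved by more than 1.5 times under the settings given here, and the shares of all tested moved too. For beclomethasone at 24 hpf 9.05% were higher, 7.32% with array medians subtracted and 5.84% without the filter on dim probes. They were 12.2% over all probes, 9.58% with the median over probes and 3.19% with only the groups compared. Lower were 10.1%, 9.81% over all probes, 8.16% with the median over probes and 2.02% with only the groups compared. Left-out single arrays gave 4.95% to 11% higher and 3.79% to 14.1% lower. For beclomethasone at 24 hpf 5 genes were higher, against 3 with array medians subtracted, 3 without the filter on dim probes, 23 over all probes, 8 with the median over probes, 0 with slide as a block, 24 in the deposited table as labelled and 1 with only the groups compared in the fit, with 2 to 6 when single arrays were left out. For beclomethasone at 24 hpf 27 genes were lower, against 46 over all probes, 14 with the median over probes, 2 with slide as a block, 4 in the deposited table as labelled and 4 with only the groups compared in the fit, with 12 to 30 when single arrays were left out. For beclomethasone at 72 hpf 3 genes were higher, against 1 with array medians subtracted, 1 without the filter on dim probes, 1 with slide as a block, 14 in the deposited table as labelled and 1 with only the groups compared in the fit, with 1 to 3 when single arrays were left out. For beclomethasone at 72 hpf 10 genes were lower, against 16 with array medians subtracted, 17 with normexp and quantile normalization, 17 over all probes, 0 with slide as a block, 5 with the replicate block and 2 in the deposited table as labelled, with 3 to 14 when single arrays were left out. For the difference of the effects 1 gene was higher, against 2 with array medians subtracted, 2 with quantile normalization, 2 with normexp and quantile normalization, 2 over all probes, 0 with slide as a block, 0 with the replicate block and 0 in the deposited table as labelled, with 0 to 3 when single arrays were left out. For the difference of the effects 0 genes were lower, against 5 over all probes and 2 with the median over probes. There was 1 in the deposited table as labelled, and 0 to 1 when single arrays were left out. Of all tested 3.74% were lower, 5.21% over all probes and 3.71% with the median over probes. Higher were 2.56%, 4.08% with array medians subtracted, 2.4% with quantile normalization and 3.94% with normexp and quantile normalization. They were 2.55% over all probes, 1.29% with the replicate block and 1.1% to 6.24% with single arrays left out. For stage in DMSO 7 genes were higher, against 4 with array medians subtracted, 14 over all probes, 4 with the median over probes, 4 with slide as a block and 4 with only the groups compared in the fit, with 6 to 7 when single arrays were left out. For stage in DMSO 63 genes were lower, against 131 over all probes, with 60 to 63 when single arrays were left out. Of all tested 36.6% were lower in DMSO, and 36.1% over all probes. Higher were 29.3%, 21.6% with array medians subtracted, 30.3% over all probes, 29.5% with the median over probes and 24.2% with only the groups compared. In beclomethasone 33.8% were higher, 25.6% with array medians subtracted and 33% over all probes. There 33.7% were lower, and 34.7% over all probes. For stage in beclomethasone 7 genes were higher, against 3 with array medians subtracted and 13 over all probes, with 6 to 7 when single arrays were left out. For stage in beclomethasone 62 genes were lower, against 137 over all probes, with 60 to 64 when single arrays were left out. Of all tested 4.8% were higher and 5.44% lower for beclomethasone at 72 hpf. With array medians subtracted they were 4.42% and 7.33%, and with normexp and quantile normalization 6.1% and 7.39%. Without the filter on dim probes they were 3.17% and 3.29%, and over all probes 4.53% and 4.72%. With only the groups compared they were 7.28% and 6.18%. Left-out single arrays gave 3.18% to 7.63% higher and 2.79% to 7.65% lower. All of these fits used limma. For beclomethasone at either stage a count of 0 is given beside its unadjusted count in the account of that comparison. For the difference of the effects the main fit had 9 higher and 5 lower genes at an unadjusted p under 0.05. These were 2 and 1 with slide as a block, 6 and 6 with the replicate block and 7 and 8 in the deposited table as labelled. The fit over all probes counts probes and not genes, and in the deposited table as labelled the treatments are exchanged. Joined to the matching arrays that table gave 4 higher and 24 lower genes for beclomethasone at 24 hpf. Of all tested 10.8% and 8.27% were then higher and lower. At 72 hpf it gave 2 and 14 genes, against 5.3% and 6.2% of all tested. The cause of the other changes was not tested.

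The same-numbered arrays deviated together at 72 hpf and not at 24 hpf or across stages, where the correlations of their deviations ran from -0.09 to 0.10. The replicate block is therefore read as a pairing at 72 hpf alone, where it gave 5 lower and 2 higher genes.

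With quantile normalization the sign turned at 0.68 (srsf7b) for beclomethasone at 24 hpf. With the median over probes the sign turned at 0.45 (hnrnpl2), 0.094 (rbm38), 0.55 (srsf5a), 0.38 (srsf6a) and 0.035 (srsf7a) for beclomethasone at 24 hpf, at -0.053 (the median of the genes) for the difference of the effects, at -0.15 (hnrnph1) and -0.073 (rbm41) for stage in DMSO, at -0.31 (hnrnph1) and 0.033 (srsf5b) for stage in beclomethasone. Without DMSO replicate 3 of 24 hpf the sign turned at 0.69 (srsf7b) for beclomethasone at 24 hpf. In the deposited table as labelled the sign turned at 0.17 (the median of the genes), 0.32 (hnrnpa0a), 0.26 (hnrnpa0b), 0.41 (hnrnpa1b), 0.32 (hnrnpaba), 0.29 (hnrnpabb), 0.34 (hnrnpc), 0.32 (hnrnph1l), -0.41 (hnrnph3), 0.23 (hnrnpr), 0.52 (hnrnpub), 1.06 (rbm12), 0.49 (rbm12ba), 0.23 (rbm18), -0.42 (rbm22), 0.30 (rbm25b), 0.19 (rbm38), 0.63 (rbm4.1), 0.51 (rbm4.2), 0.36 (rbm4.3), -0.22 (rbm47), -0.57 (rbm48), -0.28 (rbm7), 0.31 (rbm8a), 0.35 (sf3b3), 0.31 (sf3b6), 0.27 (snrpc), 0.45 (snrpd3l), 0.37 (srsf10b), 0.37 (srsf1a), 0.49 (srsf2b), 0.30 (srsf3b) and 0.30 (srsf7a) for beclomethasone at 24 hpf, at 0.13 (the median of the genes), 0.28 (hnrnpa1b), 0.43 (hnrnpc), 0.30 (hnrnph1l), 0.27 (hnrnpr), 1.22 (rbm12ba), 0.29 (rbm14b), 0.35 (rbm38), -0.24 (rbm39a), 0.31 (rbm4.2), -0.47 (rbm48), 0.22 (sf3b4), 0.31 (snrpd1), 0.25 (snrpd3), 0.29 (snrpe), 0.27 (srsf10b), 0.20 (srsf2a) and -0.81 (srsf3a) for beclomethasone at 72 hpf, at -0.036 (the median of the genes) and -0.60 (srsf3a) for the difference of the effects, at -0.36 (rbm39b), -0.60 (rbm7) and 0.073 (srsf5b) for stage in DMSO, at 0.044 (rbm39b) and 0.025 (srsf5b) for stage in beclomethasone. With array medians subtracted the sign turned at -0.14 (hnrnpd) and -0.26 (rbm39b) for stage in DMSO; -0.016 (hnrnpd), -0.042 (hnrnph1) and -0.25 (hnrnpr) for stage in beclomethasone. With normexp and quantile normalization the sign turned at -0.18 (rbm7) for stage in DMSO; 0.038 (srsf5b) for stage in beclomethasone. In the deposited table joined to the matching arrays the sign turned at -0.24 (rbm7) and 0.025 (srsf5b) for stage in DMSO; 0.073 (srsf5b) for stage in beclomethasone. In the deposited table as labelled the treatments are exchanged, and joined to the matching arrays it turned far fewer signs. The cause of the other changes of sign was not tested. For srsf7b with beclomethasone at 24 hpf, leaving out single arrays gave -0.55 to 0.69. Signal over background limits srsf7b, rbm44 and rbm46, which were dim on most arrays of a group, and hnrnph3, rbm12ba, rbm24a, rbm39b, rbm45, rbm48 and rbm7, which were dim on 1 DMSO array of 24 hpf, and DMSO replicate 3 of 24 hpf had the fewest spots above background.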
